A study of Rattus norvegicus with 6 samples.

Results

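The Hox cluster genes are the homeobox genes of the Hoxa, Hoxb, Hoxc and Hoxd clusters, and here they were taken as every gene symbol made of Hox, a cluster letter from a to d and a number. Of the 17051 genes in the tables for rat kidney, 25 had such a symbol: 6 of Hoxa, 7 of Hoxb, 5 of Hoxc and 7 of Hoxd. Rat Hox genes outside these 25 were not analysed here. RNA was sequenced from kidney tissue of 6 male Sprague Dawley rats. The 3 of the AL group (rats 61, 71 and 88) had standard laboratory chow ad libitum. The 3 of the HD group (rats 64, 67 and 69) had the hyperammonemic diet, an amino acid mixture added to standard chow powder for a week. The labels name no mutation, transgene or further treatment, and the age of the rats and the part of the kidney used for sequencing are not given in the sources used here. The study's methods state for qPCR that RNA came from a halved kidney. The question asked of the Hox genes was how their levels are distributed over clusters and paralog numbers, and whether the diets differed in them as a readout of the zones of the kidney in each sample.

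Hox genes encode homeodomain transcription factors that bind DNA together with cofactors of the Pbx and Meis families. The genes of a cluster lie in a row and are numbered along it, and genes with the same number in different clusters are paralogs. In the embryo, genes of low number are active toward the head and genes of high number toward the tail. Hoxa11 and its paralogs are required for the metanephric kidney to form, and Hoxb7 is a known marker of the ureteric bud and of the collecting ducts that arise from it.

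The genome positions in the tables are of build rn5. Hoxb7 lies at chr10:83937956-83941374, Hoxb8 at chr10:83934227-83935978 and Hoxb5 at chr10:83954884-83957092, all on the plus strand with 2 exons each. Hoxd9 lies at chr3:68086528-68088228 on the plus strand with 3 exons, and Hoxd10 at chr3:68080469-68083678 with 2. The other Hoxb and Hoxd genes, Hoxb13 to Hoxb3 and Hoxd13 to Hoxd1, follow each other on the same chromosomes in falling order of number. The Hoxc genes lie on chromosome 7 and the Hoxa genes on chromosome 4, the latter on the minus strand. In this build Hoxa6, Hoxa9 and Hoxa11 are each listed at 2 places on chromosome 4, between 85524 and 85795 bases apart. The authors' counts for these genes were split between the places, and they were added here, so their levels are less certain than those of the single-copy genes. The reads of Hoxa11 are uncertain for a further reason, because 686 exonic bases are shared with RGD1564419 on the other strand and the library kit does not mark strand.

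Promoter sequences are shown for 4 genes of the Hoxd cluster, of which Hoxd9 and Hoxd10 had many reads and Hoxd12 and Hoxd13 had none. No Hoxd gene of number 11 is in the tables, so where the cluster passes from reads to none cannot be placed. Each runs from 250 bases before the start of the gene to 50 after it, was taken from RefSeq for build GRCr8, is on the plus strand and has every CpG dinucleotide in capitals. They lie at chr3:80007756-80008055 for Hoxd9, chr3:80001697-80001996 for Hoxd10, chr3:79984856-79985155 for Hoxd12 and chr3:79977827-79978126 for Hoxd13.
Hoxd9: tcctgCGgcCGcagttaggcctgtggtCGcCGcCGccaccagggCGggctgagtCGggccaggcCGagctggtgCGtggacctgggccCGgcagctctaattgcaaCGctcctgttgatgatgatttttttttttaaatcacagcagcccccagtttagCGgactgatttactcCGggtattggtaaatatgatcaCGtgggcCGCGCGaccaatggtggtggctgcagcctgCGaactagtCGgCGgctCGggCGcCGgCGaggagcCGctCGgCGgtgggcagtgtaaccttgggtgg
Hoxd10: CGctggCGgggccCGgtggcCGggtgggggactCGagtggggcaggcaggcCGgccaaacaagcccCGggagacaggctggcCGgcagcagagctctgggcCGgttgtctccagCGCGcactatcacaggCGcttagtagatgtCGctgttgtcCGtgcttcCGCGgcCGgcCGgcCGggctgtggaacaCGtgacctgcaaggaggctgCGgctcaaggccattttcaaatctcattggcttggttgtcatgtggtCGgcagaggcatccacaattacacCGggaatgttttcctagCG
Hoxd12: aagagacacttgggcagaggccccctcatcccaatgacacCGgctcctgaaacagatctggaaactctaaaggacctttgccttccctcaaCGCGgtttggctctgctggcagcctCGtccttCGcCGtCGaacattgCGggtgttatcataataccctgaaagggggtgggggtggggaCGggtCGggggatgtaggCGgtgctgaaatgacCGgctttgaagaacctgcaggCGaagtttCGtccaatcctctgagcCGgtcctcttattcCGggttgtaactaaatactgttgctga
Hoxd13: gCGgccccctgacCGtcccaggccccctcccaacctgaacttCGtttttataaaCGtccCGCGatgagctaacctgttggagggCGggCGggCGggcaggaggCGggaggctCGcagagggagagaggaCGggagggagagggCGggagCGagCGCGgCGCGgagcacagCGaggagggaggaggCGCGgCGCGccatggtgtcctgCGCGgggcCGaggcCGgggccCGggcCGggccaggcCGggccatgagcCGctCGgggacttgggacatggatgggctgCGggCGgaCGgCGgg
The window of Hoxd9 held 27 CpG dinucleotides and that of Hoxd10 held 24. Hoxd12, which had no reads, held 16, and Hoxd13, also without reads, held 36. All 4 windows were above the median of 7 over 33469 rat promoters of the same length, and the genes with reads lay between those without. The letters CCAAT were found on either strand 2 times at Hoxd9, 1 time at Hoxd10 and 2 times at Hoxd12, and not at Hoxd13, against 37.5% of all promoters with a match. The letters GGGCGG were found 1 time at Hoxd9 and 5 times at Hoxd13 (33.1% of all promoters), and TATAAA only at Hoxd13 among the 4, in overlapping matches on both strands (14.2%). The letters TGATNNAT, searched because Pbx and Hox proteins bind such letters together, were in none of the 4 windows and in 9.10% of all promoters. These counts describe the windows only. Of the 25 Hox genes, 13 had an entry in the table of promoters.

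The estimated count reached 30 or more in some rat for 18 of the 25 Hox genes, and these were tested between the diets. They were 4 of the 6 Hoxa genes (Hoxa2, Hoxa6, Hoxa9, Hoxa11), 6 of the 7 Hoxb genes (Hoxb3, Hoxb4, Hoxb5, Hoxb7, Hoxb8, Hoxb9), 4 of the 5 Hoxc genes (Hoxc4, Hoxc5, Hoxc8, Hoxc9) and 4 of the 7 Hoxd genes (Hoxd3, Hoxd4, Hoxd9, Hoxd10). The other 7 were not tested, and among them Hoxd1 had between 0 and 11 counts per rat. Of the genes of numbers 12 and 13, Hoxb13, Hoxc12, Hoxd12 and Hoxd13 were at 0 counts in every rat, and Hoxa13 had 1 count in rat 69 and 0 in the others. A count of 0 over all 6 libraries allows a level of up to 0.0277 CPM (counts scaled to a common library size; 3 counts of the 108271829 in all, counting error only), and up to 0.24 in the smallest library. Total counts ranged from 12499945 to 30466461 per rat, and the Hox genes together took between 0.0292% and 0.0387% of them.

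The levels of different genes were compared as TPM, the authors' transcript levels scaled to transcript length and to the library. Hoxb7 was measured at 133, 149 and 117 TPM in AL rats 61, 71 and 88 and at 95.8, 108 and 107 TPM in HD rats 64, 67 and 69. It was the highest Hox gene in every rat except rat 69. Hoxd9, a gene of the posterior part of its cluster, was measured at 77.5, 82.8 and 84.8 TPM in AL rats 61, 71 and 88 and at 93.4, 81.8 and 128 in HD rats 64, 67 and 69. In rat 69 it passed Hoxb7. Hoxb8, the neighbour of Hoxb7, was measured at 32.9, 52.3 and 46.6 TPM in the AL rats and at 54.4, 47.4 and 54.9 in the HD rats. It stood below Hoxd9 in every rat. Among the 11553 genes tested, the mean TPM of Hoxb7 ranked at the 88.4th percentile, that of Hoxd9 at the 85.4th and that of Hoxb8 at the 74.9th. These 3 genes held between 62.1% and 69.1% of the summed TPM of the Hox genes.

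**Figure D1:**
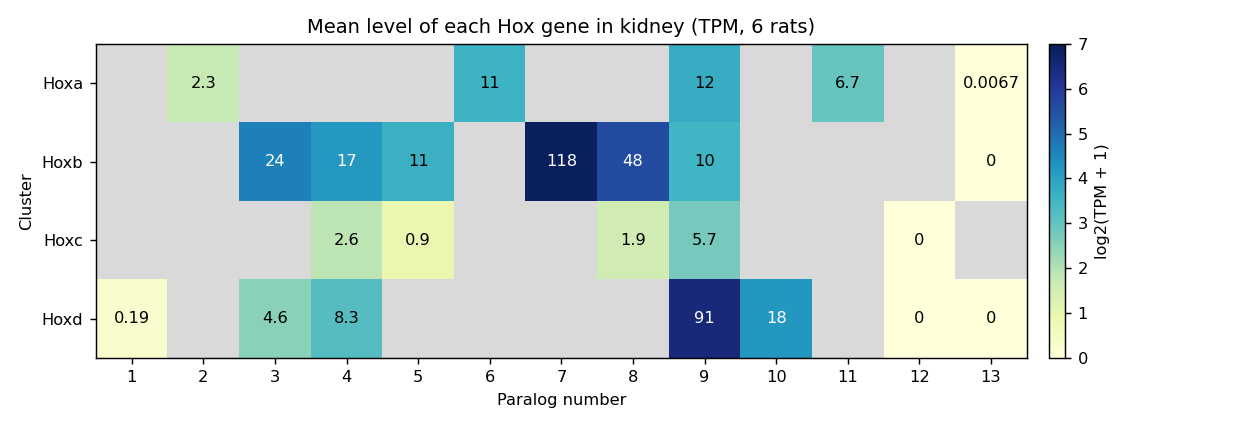
The mean TPM of each Hox gene over the 6 rats is printed in a grid of cluster (vertical) and paralog number (horizontal), with colour for log2 of TPM plus 1, and grey marks combinations not reported here. Hoxb7 (118 TPM) and Hoxd9 (91.3 TPM) stand out, and Hoxd1 and the genes of numbers 12 and 13 are at or near 0.

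The other 15 tested Hox genes were lower. Hoxb3 lay between 18.9 and 30.6 TPM, Hoxb4 between 12.1 and 22.6 and Hoxd10 between 12.3 and 27.1. These were followed by Hoxa9 (8.80 to 14.4 TPM), Hoxb5 (6.53 to 16.2 TPM), Hoxa6 (7.10 to 13.5 TPM) and Hoxb9 (7.10 to 12.6 TPM), whose ranges overlapped each other. Hoxd4 lay between 5.79 and 9.34 TPM and Hoxa11, the only gene of number 11 in the tables, between 4.42 and 8.54. The lowest were Hoxc9 (3.75 to 8.11 TPM), Hoxd3 (3.13 to 5.63 TPM), Hoxc4 (1.83 to 4.47 TPM), Hoxa2 (1.71 to 3.05 TPM), Hoxc8 (1.51 to 2.54 TPM) and Hoxc5 (0.38 to 1.71 TPM). Hoxc5 ranked at the 4.34th percentile of the tested genes.

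By cluster, Hoxb held between 51.4% and 61.9% of the summed Hox TPM of a rat, Hoxd between 26.2% and 38.2%, Hoxa between 7.37% and 8.79% and Hoxc between 2.10% and 3.50%. These ranges did not overlap, so the order of the clusters was the same in the 6 rats. The tables hold part of each cluster, and the shares refer to the genes listed. In each paralog number with several tested genes, a Hoxb or Hoxd gene was the highest, and the Hoxc gene, where listed, the lowest. Hoxb3 was above Hoxd3 in 6 of 6 rats, by between 4.16 and 6.27 times in TPM. Hoxb4 was above Hoxd4 and Hoxd4 above Hoxc4 in 6 of 6 rats. Hoxb5 was above Hoxc5 by between 8.95 and 31.2 times, and Hoxb8 above Hoxc8 by between 20.6 and 32.8 times. Among the genes of number 9, Hoxd9 was above Hoxa9 by between 5.85 and 10.5 times in 6 of 6 rats, while Hoxa9 was above Hoxb9 in 4 of 6, which does not separate them. Hoxb9 was above Hoxc9 in 6 of 6 rats, by as little as 1.02 times in 1 of them. By number, the single gene of number 7 and the 4 genes of number 9 led, with summed levels of 95.8 to 149 TPM and 101 to 161 TPM, respectively, and those of number 8 held 34.4 to 56.6 TPM.

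The diets were compared on counts with edgeR's quasi-likelihood test, with levels given as TMM-normalized CPM and differences as log2 fold changes of HD against AL. None of the 18 Hox genes passed an adjusted *P* value of 0.05 (Benjamini-Hochberg over 11553 genes, 0.0% of which passed). The adjusted *P* values of the Hox genes lay between 0.406 and 0.971. At an unadjusted *P* value under 0.05, 3 of the 18 differed (16.7%), Hoxb5 lower and Hoxb8 and Hoxd9 higher in the HD group, against 10.6% of all tested genes (5.94% lower and 4.66% higher). With DESeq2, 0 of the 18 passed the adjusted threshold, against 1.58% of all genes, and the 3 with an unadjusted *P* value under 0.05 (11.5% of all genes) were Hoxb5, Hoxd9 and Hoxb7. The count of 3 rested on single libraries. It was 0 without rat 64, 1 without rat 69 (Hoxb5), 1 without rat 71 (Hoxb8), 1 without rat 88 (Hoxb7) and 2 without rat 61 or without rat 67. The count over all genes moved as well, from 1224 in the main fit to 639 without rat 64, 881 without rat 71 and 606 without rat 88. Over all genes it was 958 without rat 67, 1722 without rat 61 and 1744 without rat 69. With 3 rats in each group, 0.1 is the smallest two-sided *P* value an exact permutation test allows. Whether the rats were housed or processed in batches is not given in the labels.

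Hoxb5, a gene from the middle of its cluster, had the Hox genes' lowest log2 fold change. Its level was 12.5, 14.2 and 12.97 CPM in AL rats 61, 71 and 88 and 6.71, 9.69 and 9.98 CPM in HD rats 64, 67 and 69. All HD rats were below all AL rats, with rat 64 the lowest. The log2 fold change was -0.58 (SE 0.20, exact permutation *P* = 0.1, edgeR adjusted *P* = 0.406). It stayed between -0.68 and -0.43 when single rats were left out.

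Hoxb7, the collecting duct marker, was measured at 110, 102 and 85.4 CPM in AL rats 61, 71 and 88 and at 76.7, 87.7 and 78.3 CPM in HD rats 64, 67 and 69. The groups overlapped in CPM, where AL rat 88 was below HD rat 67, but not in TPM. The log2 fold change was -0.29 (SE 0.13, exact permutation *P* = 0.2, edgeR adjusted *P* = 0.481).

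Hoxd9 was measured at 68.7, 61.1 and 67.0 CPM in the AL rats in the same order and at 80.6, 71.8 and 101 CPM in HD rats 64, 67 and 69. All HD rats were above all AL rats, and rat 69 stood highest. The log2 fold change was 0.37 (SE 0.15, exact permutation *P* = 0.1, edgeR adjusted *P* = 0.451), and it was 0.22 without rat 69.

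Hoxb8 was measured at 21.4, 28.3 and 27.1 CPM in the AL rats and at 34.5, 30.5 and 31.9 CPM in HD rats 64, 67 and 69. Here too the groups did not overlap, and AL rat 61 was the lowest. The log2 fold change was 0.33 (SE 0.14, exact permutation *P* = 0.1, edgeR adjusted *P* = 0.470), and it was 0.22 without rat 61.

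**Figure D2:**
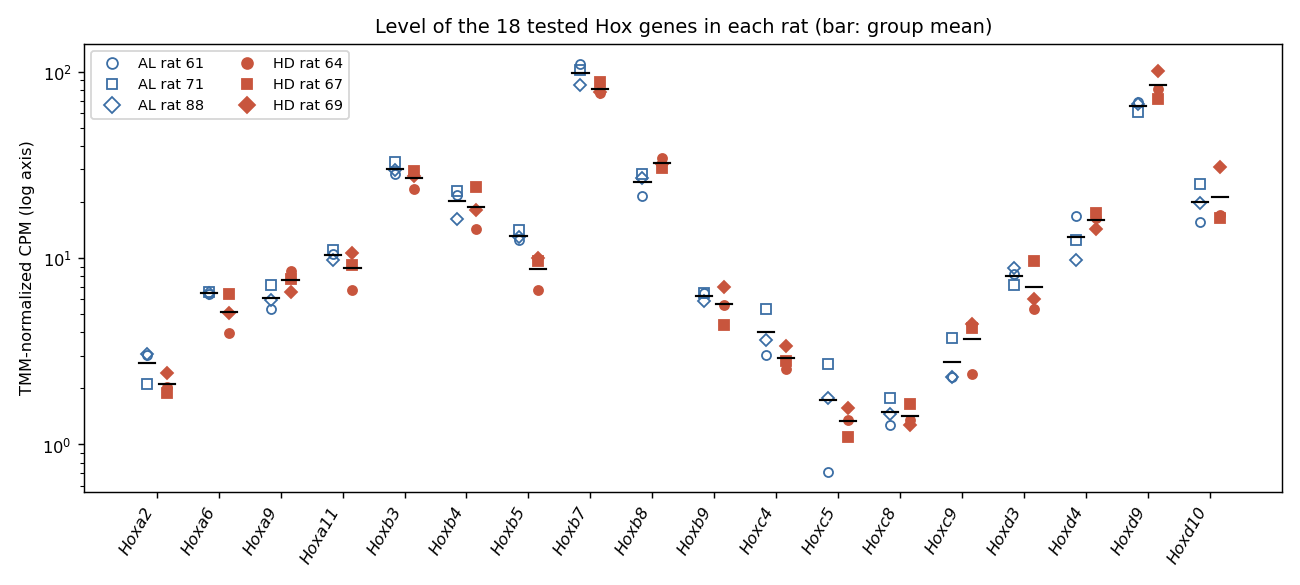
The TMM-normalized CPM of the 18 tested Hox genes is plotted on a log axis for each rat, with open blue symbols for AL, filled red symbols for HD and a bar at the group mean. The groups separate at Hoxa6, Hoxb5, Hoxb8 and Hoxd9 and overlap at the other genes.

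In CPM the groups did not overlap for 4 of the 18 Hox genes (22.2%), against 14.3% of all tested genes. The fourth was Hoxa6, whose AL rats lay between 6.43 and 6.54 CPM and whose HD rats lay at 3.99, 6.40 and 5.08 in rats 64, 67 and 69, so that rat 67 was just below the AL rats. The scale mattered here. In TPM, chosen after the data were seen, 3 of the 18 did not overlap, against 12.7% of all tested genes, and these were Hoxa6, Hoxb5 and Hoxb7, all lower in HD. Hoxb8 and Hoxd9 overlapped in TPM, with AL rat 71 above HD rat 67 in both. The median log2 ratio of the group means was -0.06 over all tested genes in TPM and 0.0067 as a log2 fold change in the edgeR fit.

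Over the 18 genes, 12 had a log2 fold change below 0 and 6 above, where all tested genes divided into 48.7% below and 51.3% above. The median was -0.16, against 0.0067 for all genes. The median absolute value was 0.30 against 0.16, and the median SE was 0.23 for Hox genes against 0.19 for all genes. By cluster, 3 of 4 Hoxa genes, 5 of 6 Hoxb genes and 3 of 4 Hoxc genes were lower in HD, while 3 of 4 Hoxd genes were higher. Hoxc9 had the highest log2 fold change (0.40, SE 0.36), followed by Hoxd9, Hoxb8, Hoxd4 (0.31, SE 0.22) and Hoxa9 (0.30, SE 0.22). Below 0, Hoxb5 was followed by Hoxc4 (-0.46, SE 0.31), Hoxc5 (-0.39, SE 0.51), Hoxa2 (-0.35, SE 0.31) and Hoxa6 (-0.33, SE 0.24). Hoxa11 was at -0.23 (SE 0.22), Hoxd3 at -0.20 (SE 0.27), Hoxb3 at -0.17 (SE 0.13), Hoxb9 at -0.15 (SE 0.24), Hoxb4 at -0.10 (SE 0.23), Hoxc8 at -0.08 (SE 0.35) and Hoxd10 at 0.10 (SE 0.29). Hoxb7 and these genes had unadjusted *P* values above 0.05. Several of these values rested on single rats. Without rat 64, Hoxa6 was at -0.18, Hoxa11 at -0.07, Hoxb3 at -0.09, Hoxd3 at -0.050 and Hoxc9 at 0.63. Without rat 67, Hoxa6 was at -0.51 and Hoxd3 at -0.50, and without rat 69 Hoxa11 was at -0.39, Hoxd3 at -0.10 and Hoxc9 at 0.25. Without rat 71, Hoxc4 was at -0.195 and Hoxc9 at 0.67. Without rat 88, Hoxd4 was at 0.14 and Hoxd3 at -0.13, and without rat 61 Hoxd4 was at 0.53. The signs of Hoxb4, Hoxb9, Hoxc5, Hoxc8 and Hoxd10 turned with single rats left out.

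Ordered along the clusters, the signs fell apart by paralog number. Of the 10 genes of numbers 2 to 7, 9 were lower in HD, with a median log2 fold change of -0.31, and the exception was Hoxd4. Of the 8 genes of numbers 8 to 11, 5 were higher, with a median of 0.20, and the exceptions were Hoxb9, Hoxc8 and Hoxa11. The boundary between numbers 7 and 8 was drawn after these values were seen, so the division is a description and was not tested. The counts moved to between 8 and 9 of the low-numbered genes and between 4 and 6 of the high-numbered genes over the alternative settings. Since neighbouring Hox genes of a sample share the same cells, the genes are not independent replicates.

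**Figure D3:**
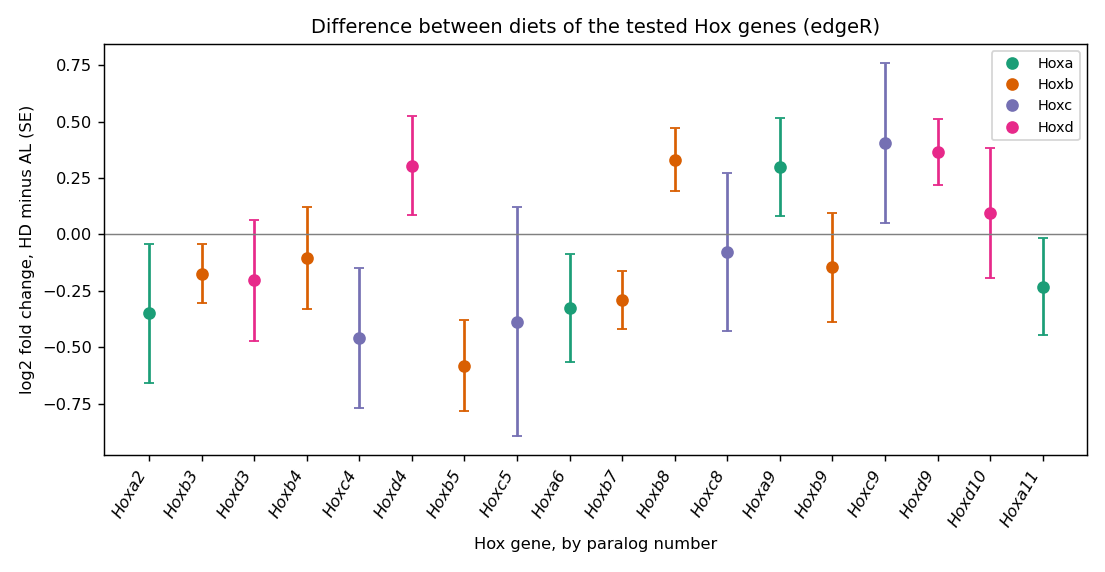
The log2 fold change of HD against AL is plotted with its SE for the 18 tested Hox genes, ordered by paralog number and coloured by cluster. All but Hoxd4 of the genes up to number 7 lie below 0, and Hoxb8, Hoxa9, Hoxc9, Hoxd9 and Hoxd10 lie above it.

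Ratios between Hox genes within a rat need no scaling between libraries. Chosen after the values were seen, 6 ratios were taken among Hoxb5, Hoxb7, Hoxb8 and Hoxd9, and they carry no test. The count of Hoxb8 relative to Hoxb7 was 0.195, 0.278 and 0.317 in AL rats 61, 71 and 88 and 0.450, 0.348 and 0.407 in HD rats 64, 67 and 69. The count of Hoxd9 relative to Hoxb7 was 0.627, 0.601 and 0.785 in the AL rats and 1.05, 0.818 and 1.29 in the HD rats. Neither ratio overlapped between the groups, though AL rat 88 and HD rat 67 were close in both. The ratio to Hoxb7 did not overlap for 30.3% of all tested genes. Relative to Hoxb5, Hoxb8 was at 1.72, 1.996 and 2.09 in the AL rats and at 5.17, 3.15 and 3.19 in the HD rats, and Hoxd9 at 5.52, 4.31 and 5.16 against 12.1, 7.42 and 10.1. These did not overlap either, and neither did the ratio to Hoxb5 for 55.4% of all tested genes. The ratio of Hoxb5 to Hoxb7 overlapped (0.114 to 0.152 in AL and 0.0870 to 0.128 in HD), as did that of Hoxd9 to Hoxb8 (2.16 to 3.21 and 2.34 to 3.17), where 31.4% of all tested genes did not overlap relative to Hoxb8.

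**Figure D4:**
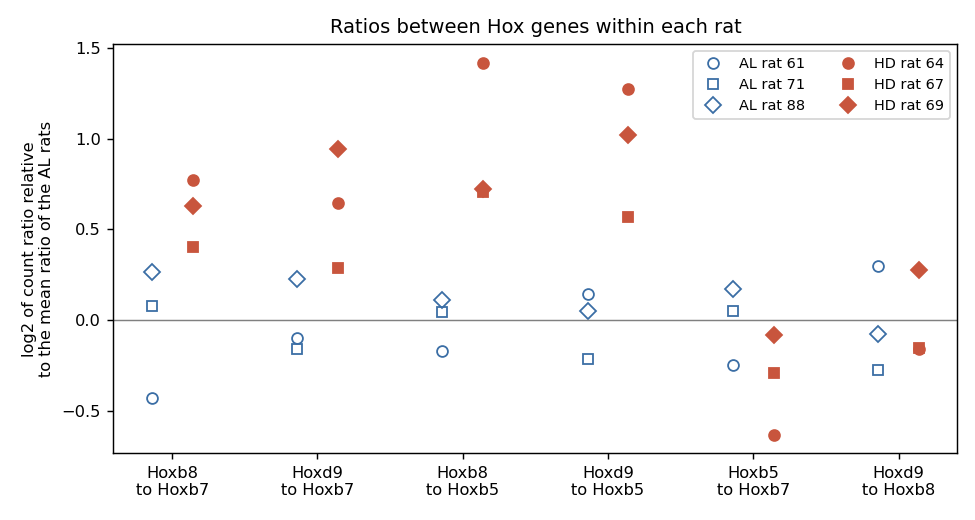
The log2 of each of 6 count ratios between Hox genes is plotted per rat relative to the mean ratio of the AL rats, with open blue symbols for AL and filled red symbols for HD. The 3 HD rats lie above the 3 AL rats for Hoxb8 and Hoxd9 relative to Hoxb7 and to Hoxb5, and the groups overlap in the last pair of ratios.

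The summed level of all Hox genes overlapped between the diets. It was 369, 457 and 387 TPM in AL rats 61, 71 and 88 and 353, 368 and 439 TPM in HD rats 64, 67 and 69 (404 ± 46.4 and 387 ± 46.0, SD, n = 3 each). AL rat 71 and HD rat 69 were the highest of their groups. Hoxb summed to 247 ± 31.3 TPM in AL and 212 ± 14.5 TPM in HD, and Hoxd to 112 ± 8.15 TPM in AL and 132 ± 30.9 TPM in HD (SD, n = 3 each). The Hoxb sums did not overlap in TPM, at 229, 283 and 229 in AL rats 61, 71 and 88 and 197, 215 and 226 in HD rats 64, 67 and 69. They overlapped in CPM, between 177 and 206 in AL and between 161 and 186 in HD. For Hoxd it was the reverse. In TPM the sums of HD rats 64 and 67 (119 and 110) lay within the AL range and rat 69 (168) above it, whereas in CPM the HD rats (119, 116 and 153 in rats 64, 67 and 69) were all above the AL rats (109, 106 and 106 in rats 61, 71 and 88). The sums of Hoxa (34.1 ± 4.60 in AL and 30.8 ± 2.31 TPM in HD) and Hoxc (11.3 ± 4.23 and 11.0 ± 2.64 TPM) overlapped between the groups (SD, n = 3 each).

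Marker lists of kidney zones and of other tissues were read in the same fit, beside the Hox genes. No gene of any list passed the adjusted threshold in edgeR's test. The genes named below as higher or lower had unadjusted *P* values under 0.05 unless stated. The podocyte, distal convoluted tubule and convoluted proximal tubule lists, which mark the cortex, were higher in the HD group in every rat by summed TPM. The podocyte list summed to between 28.0 and 85.7 TPM in AL and between 116 and 261 TPM in HD, with Nphs1, Ptpro and Wt1 among the genes higher. The distal convoluted tubule list summed to between 93.5 and 174 TPM in AL and between 179 and 521 TPM in HD, with Slc12a3, Calb1 and Trpv5 higher, and AL rat 71 and HD rat 67 were close. The convoluted proximal tubule list summed to between 1582 and 2047 TPM in AL and between 2611 and 3610 TPM in HD, with Slc34a1, Slc22a6, Slc22a8, Slc4a4 and Slc13a3 higher. Of its 9 tested genes 7 were above 0, and Cubn (-0.05) and Slc6a19 (-0.09) were below 0 with unadjusted *P* values above 0.05. Slc4a4 and Slc5a2 of this list and Magi2 of the podocyte list reached the count needed for testing only in HD rats. Their direction cannot be separated from the filter. The median log2 fold changes of the podocyte, distal convoluted tubule and convoluted proximal tubule lists were 0.78 (0.49 without rat 69), 2.05 and 0.70. The summed Hox TPM overlapped between the groups.

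Of the 13 tested inner medulla genes, 12 were lower in HD, where 48.7% of all tested genes were. Of the 12, 8 had an unadjusted edgeR *P* value under 0.05 (Slc14a2, Slc6a12, Slc5a3, Akr1b1, Nfat5, Ptgs1, Prss35 and Fxyd4), against 5.94% of all tested genes lower at that level. Ptgs2, also among the 12, reached the count needed for testing only in AL rat 88, so its direction cannot be separated from the filter. Slc14a2 and Fxyd4 are in the collecting duct list as well, so the lists are not separate. The median log2 fold change of the inner medulla list was -0.98 (-1.50 without rat 69). Single AL rats stood far above the others in some of these genes. Slc5a3 was at 40.4 CPM in rat 61 against 3.60 and 9.13 in rats 71 and 88, and in rat 88 Akr1b1 was at 390 CPM (23.3 and 99.0 in rats 61 and 71), Ptgs1 at 84.3 (27.1 and 39.6) and Prss35 at 27.9 (4.77 and 10.4). The summed TPM of the list was mostly Aqp1, which proximal tubules also express, and overlapped between the groups. Without Aqp1, a choice made after the data were seen, it was between 312 and 924 TPM in AL and between 216 and 324 TPM in HD, where AL rat 61 was below HD rat 69. Of the 15 tested collecting duct genes, 10 were lower and 5 higher, with a median of -0.24 (-0.12 without rat 67, -0.13 without rat 61 and -0.37 without rat 69). Aqp4 (-1.02), Aqp3 (-0.41), Avpr2 (-0.54), Fxyd4 (-0.43) and Slc14a2 (-1.42) were lower, and Hsd11b2 (0.65) and Scnn1b (0.53) higher, all log2 fold changes. Hoxb7, at -0.29, lay near the median of this list, while Aqp2, the vasopressin-regulated water channel of the principal cells, was at -0.05. In bulk samples, fewer cells of a type and less RNA per cell cannot be told apart. The part of the zones in the differences of single Hox genes was not tested.

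**Figure D5:**
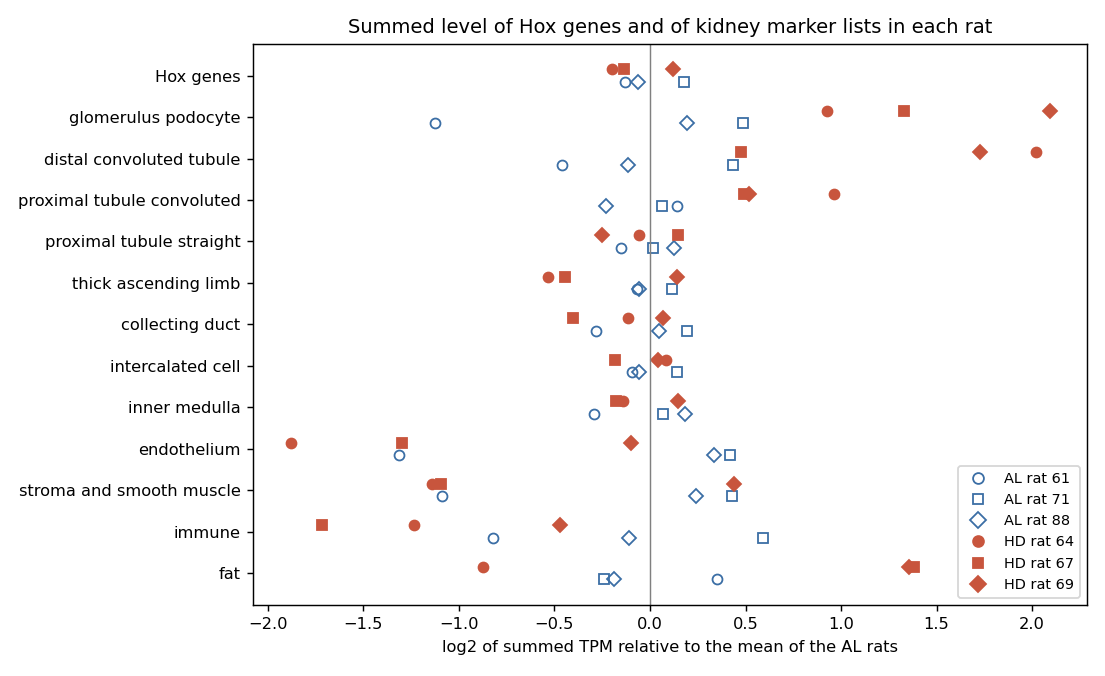
The log2 of the summed TPM of the Hox genes and of 12 marker lists is plotted for each rat relative to the mean of the AL rats. The podocyte, distal convoluted tubule and convoluted proximal tubule lists separate the groups, and the Hox genes do not. The endothelium and stroma lists divide rats 61, 64 and 67 from rats 71, 88 and 69. The Hox genes and the collecting duct, inner medulla, thick ascending limb and immune lists divide the rats in the same way.

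The remaining lists gave the following, where 51.3% of all tested genes were higher in HD and 48.7% lower. The thick ascending limb list had 9 of 10 genes lower (median -0.17, between -0.37 without rat 69 and -0.080 without rat 67, Slc12a1 the gene under 0.05). The straight proximal tubule list was at 0.11 (0.037 without rat 71, 0.059 without rat 64 and 0.21 without rat 69), with Slc13a1 higher. The intercalated cell list was at 0.27 (0.17 without rat 71), with Slc26a4 higher and Slc4a1 lower. The urothelium list had no gene under 0.05 (median 0.22), and its genes of highest mean TPM were Upk1a (log2 fold change 0.27), Upk2 (0.54) and Krt15 (-0.79). The stroma and smooth muscle list (median -0.42; with Dcn, Pdgfra and Pdgfrb lower) and the endothelium list (median -0.42, Plvap lower) had the same division of rats. The endothelium median lay between -0.94 without rat 69 and -0.14 without rat 64, and the stroma median between -1.06 without rat 69 and 0.11 without rat 71. The endothelium list summed to 146 TPM in rat 61, 99.0 in rat 64 and 148 in rat 67, against 486 in rat 71, 459 in rat 88 and 340 in rat 69. Hoxd10, Hoxc5 and Hoxc4 were also higher in CPM in every rat of the second set. Hoxc4 was at 5.32, 3.64 and 3.36 CPM in rats 71, 88 and 69 and at 3.02, 2.55 and 2.80 in rats 61, 64 and 67. How many of all genes divide the rats in this way was not counted. Hoxd10 was at 24.9, 19.7 and 30.7 CPM in rats 71, 88 and 69 and at 15.6, 17.0 and 16.4 in rats 61, 64 and 67, which was seen after the values were known and was not tested. Immune genes were lower in 8 of 8 (median -1.41, and -0.77 without rat 71; Ptprc, Cd3e, Cd3g, Lyz2 and Ncf1). Cd3e, Cd3g and Itgam reached the count needed for testing only in AL rat 71, so their direction cannot be separated from the filter. Fat genes were higher in 8 of 8 (median 2.09, and 1.29 without rat 67; Plin1 and Ucp1). By summed TPM, HD rat 64 (165 TPM) was below all AL rats (255 to 385 TPM). Lep and Retn reached the count needed only in HD rats, so the same limit holds for them. Of the striated muscle list, 3 of 10 genes could be tested and 3 were higher (Mb and Tnnc1 under 0.05). Mb and Acta1 reached the count needed for testing only in HD rat 69, so their direction cannot be separated from the filter. Tnnc1 was at 1.83, 2.38 and 1.19 CPM in AL rats 61, 71 and 88. It was at 13.6, 15.9 and 28.4 CPM in HD rats 64, 67 and 69. Among the untested genes, mean CPM was lower in HD for Ckm, Myh1, Tnnt3 and Tnnc2 and higher for Myl1, Myh2 and Actc1. The red blood cell list was at 0.64, and 0.36 without rat 67 (Hba1 and Hba2 higher, Slc4a1 lower). Adrenal genes were at or near 0 (summed to 0.62 to 2.36 TPM) and none was tested. The part of these other tissues in the Hox values was not tested.

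The partners and regulators of Hox genes were close to 0 as lists. Of the 8 tested Hox cofactors, which are the Pbx, Meis and Pknox homeodomain proteins, 4 were higher and 4 lower in HD, with a median log2 fold change of -0.01. Meis1 was lower, at 4.28 ± 1.56 CPM in AL and 1.66 ± 0.99 CPM in HD (SD over 3 rats). Its log2 fold change was -1.32 (SE 0.51, edgeR adjusted *P* = 0.432). The groups overlapped. Of 13 tested genes that regulate Hox clusters, such as Polycomb proteins and retinoic acid receptors, 5 were higher and 8 lower (median -0.01). Those under an unadjusted *P* value of 0.05 were Rarb, a retinoic acid receptor (-0.65), and Gdf11, a growth factor that patterns the body axis (-0.40), both lower in HD. Of 10 tested kidney development factors, 4 were higher and 6 lower (median -0.12), and Wt1, which is also a podocyte marker, was higher (2.75). Six2, the factor of nephron progenitors that acts with Hox proteins of number 11 in the embryo, was at 0 counts in every rat.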

How the data were processed

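RNA-seq of kidney from 6 rats was analysed, 3 per diet. Libraries were poly(A)-selected (Illumina TruSeq v2, which does not mark strand) and read from one end. Transcripts were quantified by the authors with RSEM 1.1.15 per the labels, with UCSC gene definitions of build rn5. The authors deposited expected counts (estimated counts) per transcript, not normalized, with a posterior mean of the same count, and TPM values scaled to transcript length. Filters on reads are not given in the sources used here.

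Counts were summed per gene over 18361 transcripts of 17051 genes and rounded. Genes that reached a count of 30 in any rat (11553) were tested with edgeR 4.0.16 (R 4.3.3), TMM normalization, diet as the only factor and Benjamini-Hochberg adjustment at 0.05. The SE is the absolute log2 fold change divided by the square root of F. DESeq2 1.42.0 was an alternative, with RLE factors, library size alone, other count filters, posterior counts and leaving out each rat. Exact permutation used log2 of CPM plus 0.5. The edgeR step was checked on simulated counts. Total counts ranged 2.44-fold, and library pairs differed by a chi-square per degree of freedom of 24.1 to 81.2, so all 6 were separate samples. *P* values measure the spread between these rats. The Hox genes and marker lists were chosen with earlier results of these data known. All Hox genes are counted. Values of some genes covered by these rules are not reported here. Of the lists, genes with an unadjusted *P* value under 0.05 are named and, where a list had none, its 3 of highest TPM. Promoters came from RefSeq (GRCr8), and no coordinates were converted between builds. Python 3.11.15, pandas 2.3.3, numpy 2.4.6, scipy 1.17.1 and matplotlib 3.10.9 were used.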

Additional observations from a re-analysis of the deposited data

How the results depend on the processing

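No Hox gene passed the adjusted threshold under any of the 12 alternatives. Over all genes DESeq2 called 182, and edgeR called 0 in the main fit and between 0 and 4 in its alternatives. Of 215 fits of a tested Hox gene under an alternative, 208 kept their direction and 7 reversed, all of them with a rat left out. Hoxb4 lay between -0.32 and 0.055 with a rat left out (highest without HD rat 64), Hoxb9 between -0.33 and 0.011 (without HD rat 67), Hoxc5 between -0.74 and 0.089 (without AL rat 71), Hoxc8 between -0.19 and 0.062 (without AL rat 71, and 0.0086 without HD rat 69) and Hoxd10 between -0.26 (without HD rat 69; -0.05 without AL rat 61) and 0.28. The number of Hox genes with an unadjusted *P* value under 0.05 lay between 0 and 2 with a rat left out and between 2 and 3 otherwise. Over all genes that number lay between 606 and 1744 with a rat left out and between 1091 and 1462 otherwise. The log2 ratio of the summed Hox TPM lay between -0.17 and 0.03 with a rat left out, that of Hoxb between -0.27 and -0.11, that of Hoxd between 0.03 and 0.35, that of Hoxa between -0.24 and -0.04 and that of Hoxc between -0.25 and 0.30. The medians of the Hox cofactor, Hox regulator, kidney development, urothelium and stroma lists changed sign with a rat left out. Those of the other lists kept their sign, but most moved by over 1.5 times. With library size alone, the median over all genes was at a log2 fold change of -0.07 and that of the Hox genes to -0.24. The cause of these changes was not tested. Counts of 9 to 49 per rat limit Hoxc5, and 3 rats per group limit all genes. No paired analysis applied, because the study's methods state that different rats were assigned to the diets at random.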

Other observations

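Genes beside the Hox clusters were read as well. Hairpins of the microRNAs Mir10a, Mir10b, Mir196a, Mir196b, Mir196c and Mir615, which lie within the clusters, had between 0 and 2 counts in every rat. Poly(A)-selected libraries do not measure such short RNAs, so these counts give no level of the microRNAs. Evx1, the homeobox gene at the end of the Hoxa cluster, was at 0 counts in every rat. Among genes outside the clusters, Mtx2 beside Hoxd was at a log2 fold change of 0.12 (SE 0.10), Skap2 beside Hoxa at -0.07 (SE 0.12), Calcoco1 beside Hoxc at -0.18 (SE 0.13) and Skap1 beside Hoxb at -0.55 (SE 0.46). All adjusted *P* values of these neighbours were above 0.05 in edgeR's test.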
